A study of Mus musculus with 18 samples.

Results

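Keratins and keratin-associated proteins are the building materials of epithelia, hair and claws, and this account describes the chromatin at their genes in heart muscle cells of the mouse. The members are the protein-coding autosomal genes whose symbol is Krt followed by a digit, or Krtap, in the mouse annotation, 109 of 20661 autosomal protein-coding genes. They comprise 53 keratin genes and 56 keratin-associated protein genes. Chromatin immunoprecipitation and sequencing (ChIP-seq) was done on cardiomyocyte-enriched cells of C57BL/6J mice with antibodies to 4 targets, namely the histone methyltransferase G9a (Sigma G6919), the histone marks H3K9me2 (Abcam ab1220) and H3K27me3 (Millipore 07-449), and the transcription factor Mef2c (Abcam ab43796). Mice of genotype alphaMHC-MerCreMer +/- are called Cre here, and mice of genotype G9a flox/flox; alphaMHC-MerCreMer +/- are called KO. There were 2 libraries per target and genotype and 1 input library per genotype, 18 in all. Both genotypes carry the MerCreMer transgene, a Cre recombinase that tamoxifen activates and that the alphaMHC (Myh6) promoter drives in cardiomyocytes, so the deletion is directed at that cell type and a cardiomyocyte-enriched preparation can hold other cells in which it is intact. The sources used here give neither the age of the mice nor the induction schedule. The comparison asks where G9a, its mark H3K9me2, the mark H3K27me3 and Mef2c differ between KO and Cre chromatin.

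Keratins are intermediate filament proteins that assemble from 1 type I and 1 type II chain. In the mouse most type II genes, together with the type I gene Krt18, lie in a cluster on chromosome 15, and the other type I genes lie in a cluster on chromosome 11. Keratin-associated proteins are small proteins rich in cysteine or in glycine and tyrosine that cross-link keratin filaments in the hair shaft, and their genes form further clusters, one of them nested among the type I keratins. G9a, encoded by Ehmt2, writes H3K9me2, a mark of repressed chromatin. H3K27me3 is written by Polycomb repressive complex 2 and is known for covering silent developmental genes of other lineages, epithelial genes in muscle among them. Mef2c is a transcription factor of heart muscle genes.

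The authors deposited 1 list of regions per target, and each region carries 4 values (2 Cre, 2 KO) and the -log10 p of their own comparison. Each list holds only regions that passed a -log10 p of 2, so sequence outside the lists has no value here and "coverage" below means coverage by regions listed as different. The scale of the values and the depth behind them are not given, so the values are printed in the deposited unit with no counting interval. A region belonged to a gene when it overlapped the gene or the 2 kb on either side, and neighbours can share a region. Summed over a whole list, the KO values were lower than the Cre values for G9a, H3K27me3 and Mef2c and higher for H3K9me2. Scaling the 4 libraries to the same list median moved the median log2 ratio by 0.31 (G9a), -0.29 (H3K9me2), 0.28 (H3K27me3) and 0.33 (Mef2c), so the log2 ratios below are to be read against the list medians given beside them. Of 6 cardiomyocyte marker genes, 3 had no H3K27me3 region (Tnnt2, Actc1, Tnni3). Myh6 and Ryr2 had H3K27me3 regions in both directions, and Myl2 had higher regions only. All 5 epicardial and mesothelial markers (Wt1, Upk3b, Msln, Tbx18, Aldh1a2) and all 3 epithelial markers (Cdh1, Epcam, Trp63) had H3K27me3 regions in both directions. RNA was not measured in these files, so whether any member was expressed, and how much G9a remained, was not tested.

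Regions were found at every member. Of the 109 genes, 88 had regions in all 4 lists, 13 in 3 lists and 8 in 2 lists. The share of all autosomal genes with regions in as many lists is not given here, so these counts only describe the members. The gene windows held 411 G9a regions, 317 H3K9me2 regions, 427 H3K27me3 regions and 286 Mef2c regions. The keratin-associated genes are short, with a median span of 833 bp against 7070 bp for keratins and 17491 bp for all autosomal genes, and their medians were 2 G9a, 1 H3K9me2, 2 H3K27me3 and 1 Mef2c regions per gene. Keratin genes had medians of 6, 4, 5 and 3 regions in the same order.

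H3K27me3 regions covered far more of these windows than of other gene windows. Listed H3K27me3 regions took up 59.4% of the member windows against 17.7% of the windows of all autosomal protein-coding genes. Coverage was 63.9% in the chromosome 15 cluster, 66.0% at the chromosome 11 keratins, 65.6% at the keratin-associated genes nested among them, 75.3% at the 5 Krtap5 genes on chromosome 7 and 68.1% at 3 keratin-associated genes on chromosome 10. The exception was the chromosome 16 cluster of 24 keratin-associated genes, where coverage was 19.1%. With gene spans alone it was 29.7% there, against 63.7% over all members and 17.3% over all genes. G9a regions covered 34.5% of member windows (16.4% of all windows), H3K9me2 regions 23.7% (18.3%) and Mef2c regions 19.8% (14.2%).

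**Figure D1:**
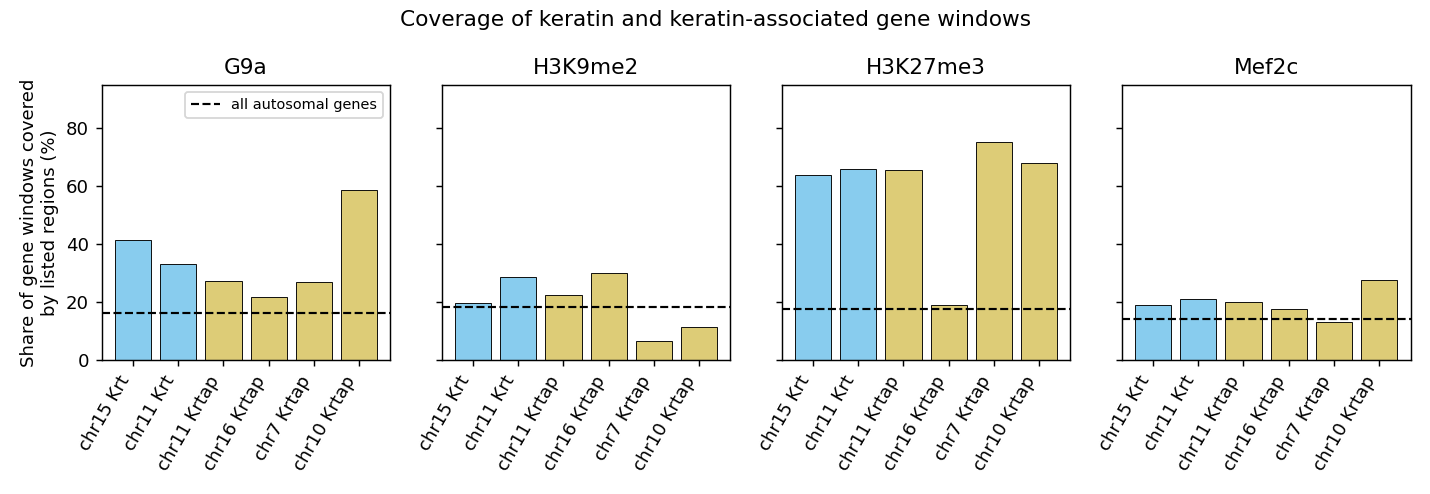
Share of gene windows (gene span and 2 kb on either side, in %) covered by listed regions for 6 groups of member genes, 1 panel per target. Blue bars are keratins, yellow bars keratin-associated genes, and the dashed line is the value over all autosomal protein-coding genes. H3K27me3 bars lie between 63.9% and 75.3% except for the chromosome 16 group at 19.1%.

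The H3K27me3 regions at these genes were also wide and strong. Their median width was 1050 bp against 750 bp in the whole list, and 85 of the 427 (19.9%) were at least 2000 bp wide against 7.39% of the list. The value per kb, divided by the median of the list, was 1.95 at the median region of the chromosome 15 cluster, 1.56 at the chromosome 11 keratins, 1.27 at the nested keratin-associated genes and 0.94 on chromosome 16. Of the 8 regions at least 5000 bp wide, all were lower in KO, as were 95.1% of the 2176 such regions in the whole list, so that count is no result about the members. The widest, of 9550 bp (chr15:101529751-101539300), covered part of the hair keratin gene Krt84 and ended in the 2 kb flank of Krt82, outside that gene. It had Cre values of 3919 and 4495 and KO values of 3327 and 2849 in the authors' deposited table. The second, of 7450 bp (chr11:100207151-100214600), overlapped an edge of Krt14 and lay mostly outside that gene. It had Cre values of 3494 and 3408 and KO values of 2411 and 2704. Neither pair of groups overlapped, with log2 ratios of -0.45 (SE 0.16) and -0.43 (SE 0.16) and an adjusted p of 0.32 for each in limma.

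The direction of the listed regions differed between targets and followed the whole lists for 2 of them. In KO, 275 of 427 H3K27me3 regions (64.4%) were lower, beside 63.3% of the list, and 181 of 286 Mef2c regions (63.3%) were lower, beside 61.7%. For G9a, 286 of 411 regions (69.6%) were lower, beside 61.5% of the list. For H3K9me2, 165 of 317 regions (52.1%) were lower, beside 39.7%. The median log2 ratio of member regions was -0.76 in the G9a list (whole list -0.73), -0.55 in the H3K9me2 list (whole list 0.72), -0.44 in the H3K27me3 list (whole list -0.64) and -0.77 in the Mef2c list (whole list -0.75). After scaling to the same median the shares lower were 69.6%, 52.1%, 62.5% and 63.3% in that order.

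Regions whose 2 KO values both lay beyond the 2 Cre values, here called apart, made up a share near that of the lists. For G9a 243 of 411 regions were apart (59.1%, list 61.5%), for H3K9me2 211 of 317 (66.6%, list 65.7%), for H3K27me3 282 of 427 (66.0%, list 67.1%) and for Mef2c 188 of 286 (65.7%, list 65.9%). Split by direction, 173 G9a regions were apart and lower (42.1%, list 39.2%) and 70 apart and higher (17.0%, list 22.4%). For H3K9me2 103 were apart and lower (32.5%, list 24.9%) and 108 apart and higher (34.1%, list 40.9%). The H3K27me3 list gave 202 lower (47.3%, list 44.5%) and 80 higher (18.7%, list 22.6%), and the Mef2c list 132 lower (46.2%, list 42.7%) and 56 higher (19.6%, list 23.3%).

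No member region passed limma with Benjamini-Hochberg adjustment at 0.05 for any target, and the whole lists had 0 passing regions except 6 for H3K27me3 (0.00119% of that list). At an unadjusted limma p under 0.05 there were 29 member regions for G9a (7.06%, list 6.5%), 35 for H3K9me2 (11.04%, list 11.1%), 71 for H3K27me3 (16.6%, list 15.3%) and 34 for Mef2c (11.9%, list 11.3%). Of these, 24 G9a regions were lower in KO (5.84%, list 5.12%) and 5 higher (1.22%, list 1.38%), and 21 H3K9me2 regions were lower (6.63%, list 2.89%) and 14 higher (4.42%, list 8.19%). For H3K27me3 67 were lower (15.7%, list 12.3%) and 4 higher (0.937%, list 3%), and for Mef2c 25 were lower (8.74%, list 8.62%) and 9 higher (3.15%, list 2.66%). Without the first G9a KO value 61 member regions passed the adjusted limma test, as did 64315 regions of that list, in a fit where the remaining KO value has no replicate and is assumed to vary like the Cre values. The authors listed these regions because they differ, so all these p-values are too small.

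**Figure D2:**
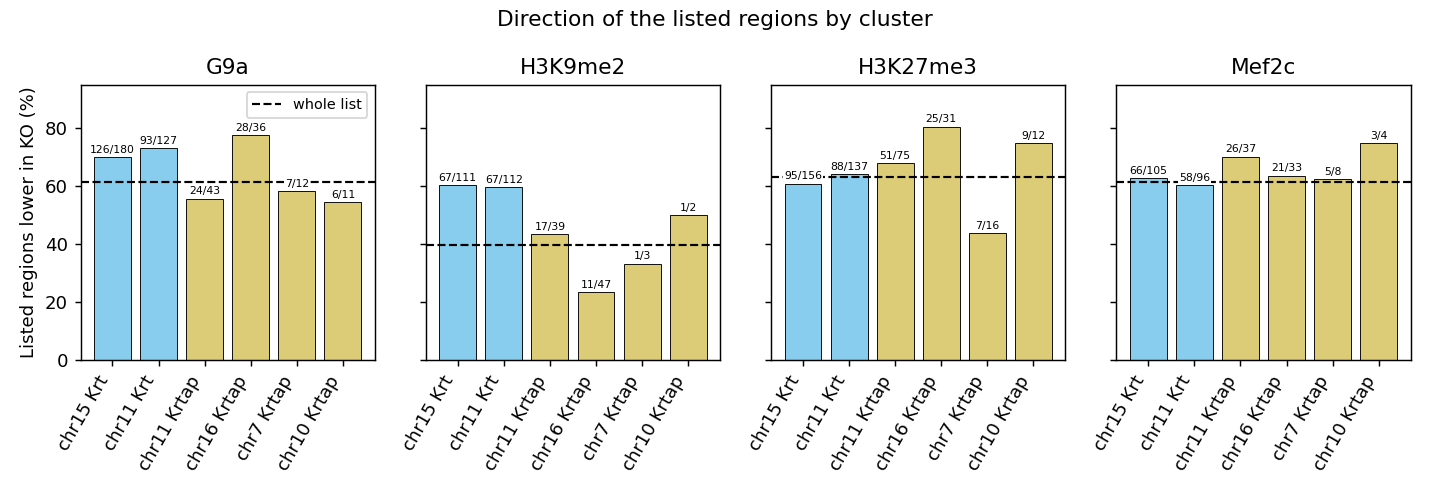
Share of listed regions whose mean value was lower in KO than in Cre (%), for 6 groups of member genes, 1 panel per target, with the number lower and the number of regions above each bar. The dashed line is the share in the whole list. For H3K9me2 both keratin clusters lie above the line at 60.4% and 59.8%, and the chromosome 16 group lies below it at 23.4%.

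H3K9me2 differed in direction between the clusters. In the chromosome 15 cluster (26 genes, chr15:101348315-102032026) 67 of 111 H3K9me2 regions (60.4%) were lower in KO, and at the chromosome 11 keratins (27 genes, chr11:99232761-100269951) 67 of 112 (59.8%) were lower. At the nested chromosome 11 keratin-associated genes (23 genes, chr11:99550132-99993994) 17 of 39 (43.6%) were lower. In the chromosome 16 cluster (24 genes, chr16:88610709-89571183) 11 of 47 (23.4%) were lower, against 39.7% in the whole list. The chromosome 7 and 10 groups held only 3 and 2 H3K9me2 regions.

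The summed H3K9me2 values showed the same split. They come from the same regions as the shares above, so they are no separate support for it. Over the chromosome 15 cluster the Cre libraries summed to 11355 and 12312 and the KO libraries to 8747 and 10498, both KO sums below both Cre sums (log2 ratio -0.30, SD 0.14, n = 2 per genotype). Over the chromosome 11 keratins the Cre sums were 14490 and 15833 and the KO sums 11722 and 13542 (log2 ratio -0.26, SD 0.12). Over the chromosome 16 cluster the Cre sums were 5725 and 4006 and the KO sums 7084 and 7072, both KO sums above both Cre sums (log2 ratio 0.54, SD 0.26). That ratio was 0.13 with gene spans alone and 0.31 to 0.82 when each value was left out in turn. The nested chromosome 11 keratin-associated genes had Cre sums of 3760 and 4116 and KO sums of 3702 and 4361, which overlapped (log2 ratio 0.034). After scaling to the same median the ratios were -0.60, -0.57, 0.26 and -0.27 in the order chromosome 15, chromosome 11 keratins, chromosome 16 and nested genes, so the sign of the nested genes depends on the scale and that of the others does not.

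A ratio taken within each library does not depend on such scaling. The log2 ratio of the summed H3K9me2 values on chromosome 16 to those on chromosome 15 was -0.99 and -1.62 in the Cre libraries and -0.30 and -0.57 in the KO libraries. The groups did not overlap, and the KO mean exceeded the Cre mean by 0.87 (SD 0.34, n = 2 per genotype, exact two-sided permutation p = 0.333, the smallest that 2 against 2 libraries allow). Without the second Cre value the difference was 0.55, and without the first it was 1.18. On chromosome 11 the ratio of keratin-associated genes to keratins was -1.95 and -1.94 in Cre against -1.66 and -1.63 in KO, a difference of 0.30 (SD 0.01, exact two-sided permutation p = 0.333). On this chromosome the keratin-associated genes form 1 block with keratins on either side, and both KO libraries lay above both Cre libraries. The cluster ratios use these same regions and were chosen after the direction of the regions had been seen.

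**Figure D3:**
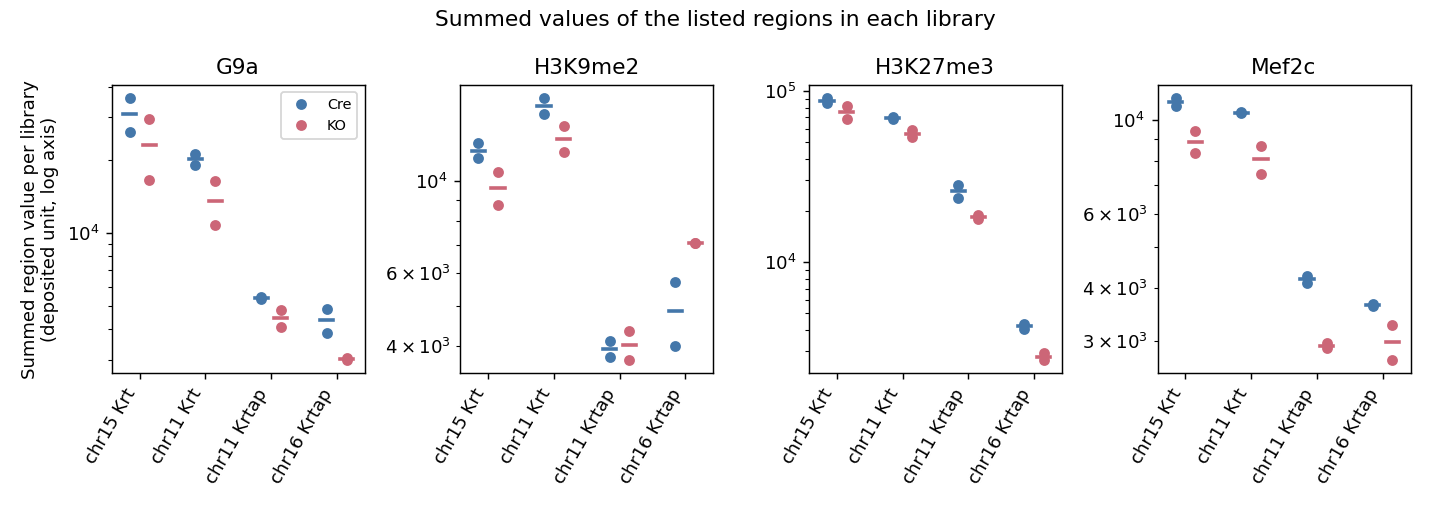
Sum of the deposited values of the listed regions over 4 groups of member genes, on a log axis in the deposited unit, 1 panel per target. Each point is a library (blue Cre, red KO) and each bar the mean of 2 libraries. For H3K9me2 the chromosome 16 group is the only one of these 4 with both KO points above both Cre points.

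The H3K27me3 sums were lower in KO in each of the 6 groups as deposited. Over the chromosome 15 cluster the Cre sums were 90967 and 85033 and the KO sums 81332 and 68731 (log2 ratio -0.23, SD 0.13), and over the chromosome 11 keratins they were 70716 and 68149 in Cre against 58917 and 53768 in KO (log2 ratio -0.30, SD 0.07). The nested keratin-associated genes had sums of 28173 and 23678 (Cre) against 18861 and 17871 (KO) (log2 ratio -0.50, SD 0.13), and the chromosome 16 cluster 4352 and 4045 in Cre against 2933 and 2666 in KO (log2 ratio -0.58, SD 0.09). In none of these 4 groups did KO and Cre sums overlap. After scaling to the same median the ratio was 0.0582 on chromosome 15, -0.0156 at the chromosome 11 keratins, -0.21 at the nested genes and -0.30 on chromosome 16, so the direction for the keratin clusters rests on the deposited scale. The ratio of chromosome 16 to chromosome 15 within each library was -4.39 in both Cre libraries and -4.79 and -4.69 in the KO libraries, a difference of -0.35 (SD 0.05, n = 2 per genotype, exact two-sided permutation p = 0.333). The nested chromosome 11 genes also had lower H3K27me3 in KO relative to the keratins around them, by -0.19 (SD 0.10), with no overlap of the libraries, and relative to chromosome 15 by -0.26 (SD 0.11). Their H3K9me2 ratio to chromosome 15 was higher in KO by 0.33 (SD 0.02).

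Mef2c showed no such split between chromosomes 15 and 16, and the G9a libraries varied too much to tell. The G9a sums over the chromosome 15 cluster were 35929 and 26025 in Cre against 29416 and 16563 in KO, which overlapped (log2 ratio -0.43, SD 0.48), and the ratio was -0.075 without the second KO value and -0.90 without the first. The G9a sums over chromosome 16 were 3876 and 4875 in Cre against 3056 and 2987 in KO (log2 ratio -0.53, SD 0.17). The difference between genotypes in the chromosome 16 to chromosome 15 ratio was -0.0546 for G9a (SD 0.56) and 0.02 for Mef2c (SD 0.06), and the libraries overlapped in both cases. The G9a difference ran from -0.45 to 0.34 when each value was left out in turn. At the nested chromosome 11 genes relative to the keratins around them the G9a ratio was -1.96 and -1.84 in Cre against -1.77 and -1.39 in KO, a difference of 0.32 (SD 0.20). The libraries did not overlap there, and the direction was that of H3K9me2. The Mef2c sums over the nested genes were 4122 and 4276 in Cre against 2879 and 2964 in KO (log2 ratio -0.52, SD 0.03), and -0.19 after scaling.

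Counted by gene, members with lower regions only were more frequent than among all genes for each target. Those with higher regions only were also more frequent for H3K9me2 and Mef2c. For G9a 28 members (25.7%) had lower regions only and 7 (6.42%) higher only, against 14.3% and 7.88% of all autosomal genes. For H3K9me2 22 (20.2%) had lower and 25 (22.9%) higher regions only (background 6.92% and 14.9%). The H3K27me3 list gave 25 (22.9%) and 3 (2.75%) members (background 12.8% and 9.13%). The Mef2c list gave 38 (34.9%) and 10 (9.17%) members (background 14.7% and 7.4%). With 5 kb flanks fewer members were 1-sided for G9a and H3K9me2, and no share of all genes was taken at that window. A gene with few regions is more often 1-sided. Members had a median of 3, 3, 4 and 2 regions (G9a, H3K9me2, H3K27me3, Mef2c) and all genes 5, 5, 2 and 5, and the part of this in the counts was not tested. On chromosome 16, 12 of 24 genes had higher H3K9me2 regions only and 0 had lower regions only, while 13 had lower H3K27me3 regions only and 0 had higher regions only. The hair shaft keratin Krt31 was the 1 member with lower regions only in all 4 lists, with summed values of 1167 and 655 against 552 and 274 (Cre against KO) for G9a, 710 and 706 against 371 and 316 for H3K9me2, 472 and 586 against 382 and 319 for H3K27me3, and 391 and 499 against 142 and 137 for Mef2c. No member had higher regions only in more than 2 lists. These counts across lists have no share of all genes beside them and only describe the members.

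**Figure D4:**
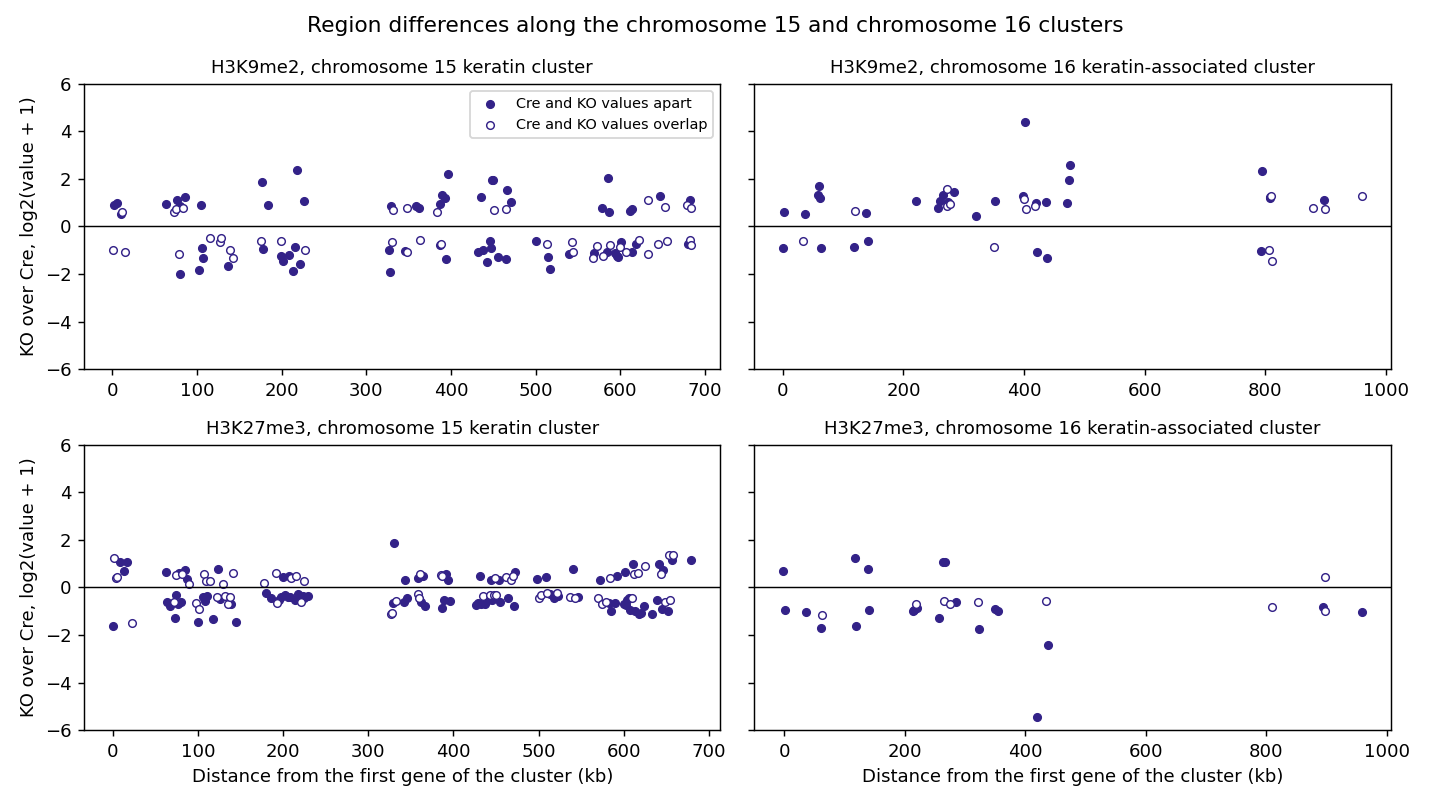
Log2 ratio of KO to Cre means (pseudocount 1) for each listed region at a member gene, against its distance in kb from the first gene of the cluster, for H3K9me2 (upper row) and H3K27me3 (lower row). Filled points are regions whose Cre and KO values do not overlap. On chromosome 16, 36 of 47 H3K9me2 points lie above 0 and 25 of 31 H3K27me3 points below 0, spread along the cluster.

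The simple epithelial keratins are the ones that single-layered epithelia, including the mesothelium, assemble. Krt18 and its type II partner Krt8 are neighbours at the end of the chromosome 15 cluster. The strongest H3K27me3 region higher in KO among all members spanned the Krt18 start site (chr15:102026401-102029200). Its Cre values were 768 and 233 and its KO values 1130 and 1089 in the authors' deposited table, with a -log10 p of 50.02. Both KO values exceeded both Cre values, as the rule for choosing this region required (log2 ratio 1.15, SE 0.45, limma adjusted p = 0.32). Krt8 also had its strongest H3K27me3 region higher in KO (Cre 178 and 110, KO 298 and 338, log2 ratio 1.14), while its summed H3K27me3 values overlapped (Cre 1168 and 1223, KO 860 and 1563). Its strongest G9a region was lower (Cre 558 and 466, KO 286 and 180, log2 ratio -1.13).

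Krt7 and Krt19 had lower H3K27me3 values in KO. The strongest H3K27me3 region of Krt7, the type II keratin of ducts and glands, had Cre values of 492 and 420 and KO values of 79 and 294 (log2 ratio -1.29), and that of its usual partner Krt19 had 693 and 870 against 451 and 343 (log2 ratio -0.98). Krt7 was lower at its strongest region for every target, with G9a values of 250 and 208 against 100 and 2, H3K9me2 values of 103 and 233 against 27 and 55, and Mef2c values of 267 and 184 against 86 and 55. In none of these 4 regions did Cre and KO values overlap. Over the whole Krt7 window H3K9me2 went the other way, with 5 regions higher and 2 lower in KO and sums of 637 and 611 (Cre) against 649 and 801 (KO), and the region at its promoter was among the higher ones. Krt20, a keratin of intestinal epithelium, had overlapping H3K27me3 values at its strongest region (Cre 432 and 108, KO 109 and 116). As a group, the 5 simple keratin genes had 7 of 20 H3K9me2 regions lower (35.0%), a share near the 39.7% of the whole list. The shares were 63.5% (33 of 52) for 15 hair shaft keratins, 68.4% for 5 basal and mucosal, 59.0% for 8 inner root sheath, 55.0% for 5 suprabasal and 52.9% for 4 injury-induced keratins. The simple keratins' H3K9me2 sums of 1603 and 1771 (Cre) against 1547 and 2158 (KO) overlapped. These role groups were drawn up after the results were known.

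Keratins of stratified epithelia carried some of the strongest H3K27me3 values. Krt5 and Krt14, the pair of the basal layer of skin, both had lower values in KO at their strongest H3K27me3 regions, 702 and 1135 in Cre against 564 and 494 in KO for Krt5 (log2 ratio -0.79) and 1588 and 1451 against 1216 and 654 for Krt14 (log2 ratio -0.70). The Krt5 region lay outside that gene, starting in its 2 kb flank. At both promoters the H3K27me3 regions were higher in KO. Over its window Krt5 had 4 regions lower and 3 higher, with overlapping sums of 3364 and 4204 (Cre) against 3750 and 3095 (KO). Krt14 had 2 lower and 2 higher, with sums of 6179 and 5694 (Cre) against 4877 and 4510 (KO). Krt15, another basal keratin and a marker of hair follicle stem cells, had a region over the gene (chr11:100131151-100135600) with 1771 and 1300 in Cre against 2175 and 2097 in KO, so both KO values were higher (log2 ratio 0.48, SE 0.21). Krt1 and Krt10 replace the basal pair as skin cells differentiate. Their strongest H3K27me3 regions differed in direction, with 1361 and 1314 in Cre against 1621 and 1827 in KO for Krt1 (log2 ratio 0.37) and 2944 and 2365 against 2125 and 1820 for Krt10 (log2 ratio -0.43).

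Krt4 and Krt13 form the pair of the internal mucosa. Krt4 had beside it the strongest G9a region that was higher in KO (chr15:101914201-101916700, Cre 316 and 166, KO 510 and 749, log2 ratio 1.38, SE 0.58). This region was chosen among those whose values do not overlap. Krt13 had its strongest H3K9me2 region lower in KO, with 226 and 222 in Cre against 83 and 17 in KO (log2 ratio -2.14). Krt17, which injured skin and hair follicles make, had G9a values of 534 and 409 (Cre) against 322 and 126 (KO) at its strongest region, and H3K9me2 values of 40 and 27 (Cre) against 176 and 114 (KO) at its own. At both regions the groups were apart, in opposite directions. Krt80 had its strongest G9a region lower in KO (Cre 326 and 271, KO 141 and 4, log2 ratio -2.03), and Krt222 its strongest H3K9me2 region (Cre 64 and 164, KO 39 and 27, log2 ratio -1.76).

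**Figure D5:**
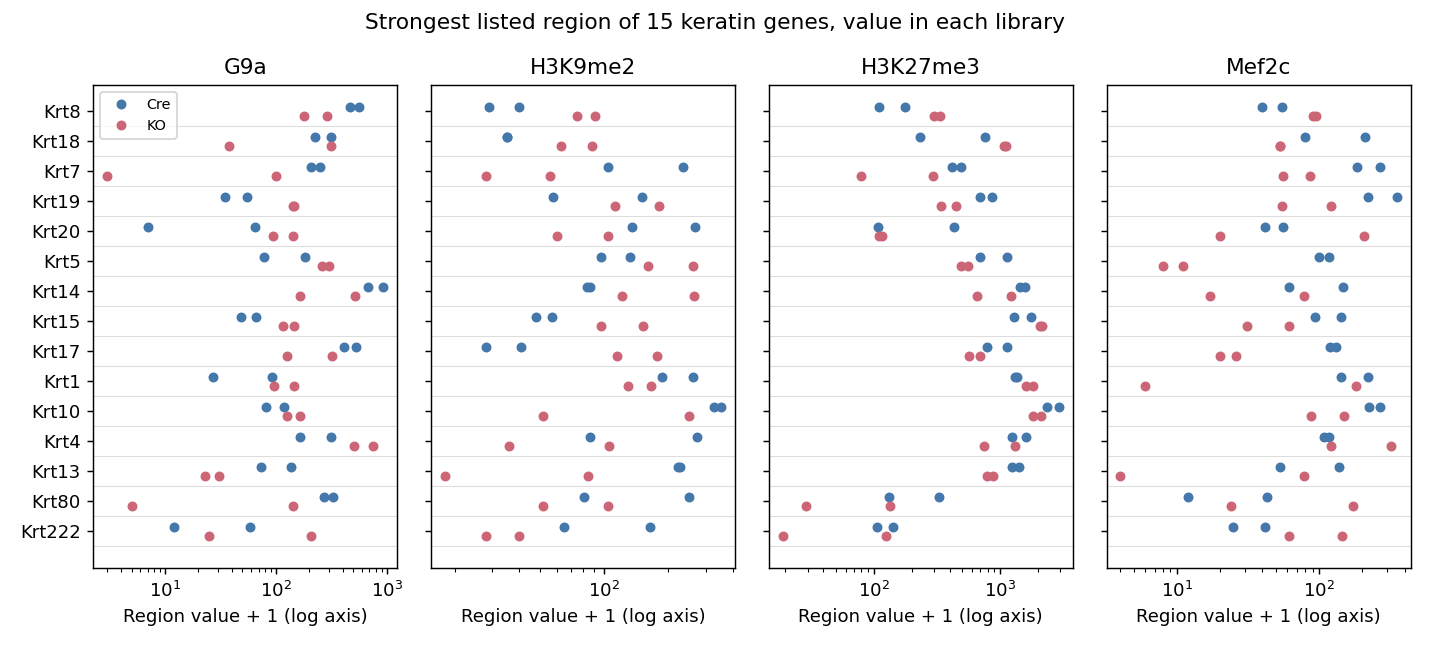
Value plus 1 in each library, on a log axis in the deposited unit, of the listed region with the highest -log10 p at 15 keratin genes, 1 panel per target. Blue points are the 2 Cre libraries and red points the 2 KO libraries. Krt7 has its red points below its blue points in all 4 panels, and Krt8 and Krt18 have red points above blue points for H3K27me3.

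G9a regions over keratins of oral mucosa and hair were among the strongest lower ones. Krt82, a keratin of the hair cuticle, had a region with Cre values of 733 and 603 and KO values of 376 and 90 (log2 ratio -1.52, SE 0.73). Krt76, a keratin of the palate and other oral epithelium, had 329 and 464 against 114 and 73 (log2 ratio -2.07, SE 0.56). The Krt72 region, at a keratin of the inner root sheath that surrounds the hair, was higher in KO (Cre 117 and 66, KO 162 and 357, log2 ratio 1.49). None of these regions passed the adjusted limma test. The 8 inner root sheath keratins had 38 of 52 G9a regions lower (73.1%) and the 15 hair shaft keratins 55 of 76 (72.4%), against 61.5% of the list. These shares were not particular to hair keratins. All keratins had 219 of 307 G9a regions lower (71.3%), and the 11 keratins outside the role groups had 65 of 89 (73.0%). The lowest share was 60.9%, at the 5 basal and mucosal keratins.

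Hair shaft keratins held strong H3K9me2 regions in both directions. At Krt34 a region (chr11:100036101-100037250) had Cre values of 53 and 10 and KO values of 318 and 207 (log2 ratio 3.02, SE 0.89). A second region at the same gene (chr11:100040401-100042100) had 355 and 502 in Cre against 177 and 135 in KO (log2 ratio -1.45). Neither pair of groups overlapped, which the choice of the first region required. Krt33a, another type I hair keratin, had a region with 332 and 174 in Cre against 56 and 55 in KO (log2 ratio -2.17). At Krt40 an H3K9me2 region was higher in KO (Cre 33 and 77, KO 295 and 306, log2 ratio 2.43), while the wide H3K27me3 region that borders it (chr11:99539101-99544200) was lower (Cre 1372 and 1710, KO 818 and 900, log2 ratio -0.84, SE 0.24). Krt39 had an H3K27me3 region that was higher in KO (Cre 268 and 334, KO 676 and 402) and a Mef2c region that was lower (Cre 244 and 157, KO 15 and 60). Over the whole Krt39 window H3K27me3 went the other way, with 5 regions lower and 3 higher. The sums there were 3062 and 2849 (Cre) against 2412 and 2055 (KO). Its Mef2c regions were 3 lower and 3 higher. At its promoter the H3K27me3 region was lower and the Mef2c region higher. At Krt87 a Mef2c region was higher (Cre 35 and 46, KO 175 and 139, log2 ratio 1.93).

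Among the cysteine-rich keratin-associated genes, Krtap4-8 was assigned the H3K27me3 region with the highest -log10 p, 55.3 in the authors' deposited table (chr11:99775901-99778350). This region reached only the 2 kb flank of Krtap4-8 and lay outside the gene. Its Cre values were 660 and 601 and its KO values 73 and 292 (log2 ratio -1.78, SE 0.57). The same gene had 3 G9a and 2 H3K9me2 regions, each higher in KO. Krtap9-5 had the strongest lower H3K9me2 region (Cre 357 and 203, KO 83 and 4, log2 ratio -2.66, SE 1.22), and Krtap4-9 a higher one (Cre 83 and 10, KO 302 and 295, log2 ratio 2.66). Krtap5-4 on chromosome 7 had a lower H3K9me2 region (Cre 449 and 143, KO 122 and 25). Krtap10-4 on chromosome 10 had the strongest lower G9a region (Cre 505 and 748, KO 376 and 20, log2 ratio -1.66, SE 1.19) and a Mef2c region that was higher (Cre 134 and 65, KO 317 and 281). Mef2c regions were lower at Krtap29-1 (Cre 183 and 290, KO 10 and 31, log2 ratio -3.47) and Krtap12-1 (Cre 485 and 201, KO 66 and 104, log2 ratio -2.00), and a G9a region was higher at Krtap16-1 (Cre 67 and 155, KO 374 and 271). Near-identical copies are common in these families, and where reads could map to several copies their values are uncertain.

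The glycine- and tyrosine-rich genes of chromosome 16 had the steepest H3K27me3 difference. A region beside Krtap6-1 (chr16:89030401-89031150) had Cre values of 181 and 165 and KO values of 5 and 1 (log2 ratio -5.44 with a pseudocount of 1, SE 1.89, limma adjusted p = 0.32). Other genes of this cluster had higher H3K9me2 regions. At Krtap22-2 the values were 1 and 11 (Cre) against 33 and 262 (KO), at Krtap21-1 they were 8 and 55 against 136 and 188, and at Krtap6-3 they were 32 and 9 against 189 and 68. Krtap21-1 also had a Mef2c region that was higher (Cre 100 and 115, KO 227 and 343, log2 ratio 1.40). Against the direction of its cluster, Krtap6-5 had a lower H3K9me2 region (Cre 290 and 261, KO 78 and 142).

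The promoters of these genes share sequence features that the choice by symbol did not use. RefSeq promoter sequences (GRCm38.p6, 250 bases before to 50 after the start) matched 87 of the 109 members and 16456 autosomal genes. The letters TATAAA stood on either strand in 61 of 87 (70.1%) against 13.5% of all promoters, and within the last 50 bases before the start in 57.5% against 3.74%. The median number of CG dinucleotides was 3 against 14, and 77.0% had at most 5 against 31.6%. Only Krt7 with 21 and Krt18 with 17 had at least 15. The consensus MEF2 motif, searched on both strands, was found in 2 promoters (2.30%, all promoters 2.78%), those of Krtap28-13 and Krtap4-2. A match is a description of letters and no site.

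Listed regions overlapped these promoters more often than promoters in general for each target. The shares were 71.3% for H3K27me3 (all promoters 30.0%), 57.5% for G9a (25.3%), 42.5% for H3K9me2 (21.5%) and 39.1% for Mef2c (24.5%). Keratin promoters stood at 80.6% for H3K27me3 and 75.0% for G9a, and keratin-associated promoters at 64.7% and 45.1%. At the 16 promoters of the chromosome 15 cluster, 13 overlapped G9a regions, and at each of these the regions were lower in KO and none higher, against 64.6% of all promoters with a G9a region and 78.6% of those of chromosome 11 keratins.

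For each target, among the promoters whose 300 bases lay wholly within a listed region, the one with the region of highest -log10 p was chosen, and its 250 bases before the start are shown, 5′ to 3′ on the gene's strand, with CG dinucleotides and TATAAA on either strand (TTTATA on the other) in capitals. They show how the CG-rich promoter of Krt18 differs from the hair and corneal promoters shown beside it. Simple keratins as a group are not alike in this. Over the 300 bases Krt7 had 21 CG dinucleotides, while Krt8 and Krt20 had 6 each and held TATAAA.
Krtap29-1 (G9a region; chr11:99979101-99979350, minus strand): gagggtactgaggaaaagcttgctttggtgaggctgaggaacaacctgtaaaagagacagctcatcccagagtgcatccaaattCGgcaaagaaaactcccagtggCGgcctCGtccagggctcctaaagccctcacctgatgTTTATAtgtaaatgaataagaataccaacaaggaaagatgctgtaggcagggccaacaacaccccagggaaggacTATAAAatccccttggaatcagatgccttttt
Krtap9-5 (H3K9me2 region; chr11:99948174-99948423, plus strand): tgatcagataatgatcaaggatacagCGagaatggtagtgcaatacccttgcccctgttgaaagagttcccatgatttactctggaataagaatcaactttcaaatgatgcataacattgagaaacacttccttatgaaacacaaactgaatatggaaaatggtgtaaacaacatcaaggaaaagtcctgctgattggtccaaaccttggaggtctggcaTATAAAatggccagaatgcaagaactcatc
Krt18 (H3K27me3 region; chr15:102027966-102028215, plus strand): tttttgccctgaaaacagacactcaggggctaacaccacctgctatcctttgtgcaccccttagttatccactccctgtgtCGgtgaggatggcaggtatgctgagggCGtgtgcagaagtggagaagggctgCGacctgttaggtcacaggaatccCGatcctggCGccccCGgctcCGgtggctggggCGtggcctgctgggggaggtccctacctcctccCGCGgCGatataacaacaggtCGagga
Krt12 (Mef2c region; chr11:99422260-99422509, minus strand): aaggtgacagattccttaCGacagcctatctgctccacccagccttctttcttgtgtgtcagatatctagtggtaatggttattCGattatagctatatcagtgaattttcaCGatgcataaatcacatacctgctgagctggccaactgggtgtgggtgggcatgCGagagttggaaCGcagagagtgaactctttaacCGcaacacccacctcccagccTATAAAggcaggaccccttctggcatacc

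At the Krtap29-1 promoter the G9a values were 272 and 196 (Cre) against 29 and 107 (KO) (log2 ratio -1.77, SE 0.78). At the promoter of Krt12, the type I keratin of the cornea, the Mef2c values were 191 and 292 (Cre) against 50 and 100 (KO) (log2 ratio -1.67, SE 0.61). Neither pair overlapped. The Krtap9-5 and Krt18 promoters lie in the H3K9me2 and H3K27me3 regions whose values are given above. TATAAA stood 32, 30 and 29 bases before the start in Krtap29-1, Krtap9-5 and Krt12, and the Krt18 promoter held 12 CG dinucleotides in its 250 bases and no TATAAA.

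Regions of different targets that overlapped each other at member genes tended to share a direction about as often as in the whole lists. The share was 59.3% of 209 overlapping G9a and H3K9me2 pairs (whole lists 53.4%), 58.2% for G9a and H3K27me3 (59.5%), 62.0% for G9a and Mef2c (60.6%) and 57.7% for H3K9me2 and H3K27me3 (51.8%). For H3K9me2 and Mef2c the share was 56.9% (53.2%) and for H3K27me3 and Mef2c 60.2% (60.3%). Both regions were lower in 91 of the 209 G9a and H3K9me2 pairs (43.5%, whole lists 28.4%). Member regions were also more often lower in each list alone (G9a 69.6%, list 61.5%, and H3K9me2 52.1%, list 39.7%). The part of this in the pairs was not tested.

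Other genes of cornified epithelia gave a companion list, drawn up with earlier results known. The 43 cornified envelope genes include those of loricrin, involucrin, filaggrins and the small proline-rich and late cornified envelope families. Of these, 22 had lower G9a regions only and 0 had higher regions only, beside 14.3% and 7.88% of all autosomal genes. Lower regions made up 80.4% of their 92 G9a regions, beside 61.5% of the whole list. Ivl, which encodes involucrin, had G9a values of 109 and 83 (Cre) against 18 and 2 (KO) at its strongest region. For H3K9me2 48.5% of the regions at these genes were lower (whole list 39.7%), for H3K27me3 73.7% (63.3%) and for Mef2c 69.2% (61.7%). The 16 other intermediate filament genes had 62.5% of G9a and 46.3% of H3K9me2 regions lower, and 14 epithelial regulators and adhesion genes 52.7% and 43.5%. The 70 defensin genes, a further clustered family, had 65.1% of G9a and 39.5% of H3K9me2 regions lower. Over the whole lists the shares were 61.5% for G9a and 39.7% for H3K9me2. None of the regions of these lists passed limma at an adjusted p of 0.05.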

How the data were processed

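Alignment used BWA 0.7.10-r789, with SAMtools 1.1 and the mm10 (GRCm38) build, per the submitters' processing notes. Region calling, normalization and any input correction are steps not given in the sources used here. The authors deposited 4 lists, 1 per target, whose text cells hold 4 values on an unstated scale and a -log10 p per region, with no replicate numbers. The series text names H3K27me2 where the labels name H3K27me3, which was used.

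Members and gene lists were chosen with earlier results of these data known. Genes and spans came from RefSeq (GRCm38.p6), and 2 pseudogene symbols were left out. Regions overlapping a gene or its 2 kb flanks were kept. Log2 ratios used the mean of 2 values plus a pseudocount of 1. For each target limma 3.58.1 (R 4.3.3, trend, Benjamini-Hochberg over all listed regions) was fitted on log2(value + 1), and the script was tested on simulated data. Single sums were compared by an exact two-sided permutation test, whose smallest p is 0.333. An SD of a log2 sum is pooled over both genotypes, and an SE is from limma. Libraries were labelled as biological replicates. Named regions were, per target and direction, the 3 members of highest -log10 p with Cre and KO values apart, plus 15 keratins fixed by role, and regions outside that rule were chosen after their values were seen. Alternatives changed the window, the pseudocount, the scaling, the -log10 p minimum, the limma trend and low values, and left out each value in turn. The 2 input libraries were not used.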

Additional observations from a re-analysis of the deposited data

How the results depend on the processing

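No paired analysis was possible because the deposited values carry no replicate numbers. With 2 values per genotype no sum can pass an exact test, so only values and directions are compared here, and the cause of each shift was not tested. Values are summed log2 ratios unless they count genes. Under the changed settings genes were counted among members only, with no share of all genes beside them. Whether members exceed all genes at those settings was therefore not tested.

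Scaling the libraries to the same median changed the sign of 10 of 24 sums, 3 of them with overlapping libraries as deposited (G9a and H3K9me2 on chromosome 10 and H3K9me2 at the nested genes). The other 7 went to 0.0435 at the nested chromosome 11 genes and 0.0535 on chromosome 7 for G9a, 0.0582 on chromosome 15 and 0.0492 on chromosome 7 for H3K27me3, and 0.0204 on chromosome 15, 0.0481 on chromosome 16 and 0.15 on chromosome 7 for Mef2c. It moved the G9a sum of chromosome 16 to -0.22 and the H3K9me2 sums to -0.60 (chromosome 15), -0.57 (chromosome 11 keratins), -0.27 (nested genes) and 0.26 (chromosome 16). H3K27me3 sums moved to -0.0156 (chromosome 11 keratins), -0.21 (nested genes), -0.30 (chromosome 16) and -0.15 (chromosome 10), and Mef2c sums to -0.0287 (chromosome 11 keratins) and -0.19 (nested genes).

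With gene spans alone (0 kb), G9a sums were -0.87 (chromosome 7) and -0.82 (chromosome 10), H3K9me2 sums 0.13 (chromosome 16), 2.05 (chromosome 7) and -0.85 (chromosome 10), H3K27me3 sums -0.41 (chromosome 16) and -0.46 (chromosome 7), and Mef2c sums -0.66 (nested genes), -1.10 (chromosome 7) and -1.18 (chromosome 10), and 7 genes had higher H3K27me3 regions only. With 5 kb flanks, genes with lower and higher regions only numbered 16 and 1 for G9a and 7 and 8 for H3K9me2, and those with higher regions only 0 for H3K27me3 and 2 for Mef2c. Sums there were 0.55 (chromosome 7) and -0.33 (chromosome 10) for H3K9me2, -0.78 (chromosome 16) for H3K27me3, and -0.46 (chromosome 16) and -0.10 (chromosome 7) for Mef2c.

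A minimum -log10 p of 10 left 44 lower only and 11 higher only genes for G9a, 15 higher only for H3K9me2, 58 and 7 for H3K27me3, and 5 higher only for Mef2c. G9a sums were then -1.03 (chromosome 11 keratins), -0.58 (nested genes), -2.11 (chromosome 7) and -1.66 (chromosome 10), and H3K9me2 sums -0.89 (chromosome 15) and -0.35 (nested genes). H3K27me3 sums were -0.40, -0.54, -0.77, -1.54, -0.41 and -0.83 for chromosome 15, chromosome 11 keratins, nested genes and chromosomes 16, 7 and 10, and Mef2c sums -0.53, -0.95, -1.75, -0.58 and -0.36 for the first 5 of these.

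Leaving out each value in turn gave these ranges. Chromosome 15 sums ran from -0.90 to -0.075 (G9a), -0.44 to -0.17 (H3K9me2) and -0.36 to -0.11 (H3K27me3). Other G9a sums ran from -0.91 to -0.30 (chromosome 11 keratins), -0.39 to -0.17 (nested genes), -0.69 to -0.36 (chromosome 16) and -0.61 to 0.0831 (chromosome 10), and 0 to 61 member regions passed limma, the latter without the first KO value. The H3K9me2 sum of chromosome 16 ran from 0.31 to 0.82 and the H3K27me3 sum of chromosome 10 from -0.74 to -0.21. Mef2c sums ran from -0.48 to -0.26 (chromosome 11 keratins), -0.43 to -0.16 (chromosome 16) and -0.90 to 0.0085 (chromosome 10). Added after seeing the data, the H3K9me2 difference in the chromosome 16 to chromosome 15 ratio ran from 0.55 to 1.18 and the H3K27me3 one at the nested genes, relative to the keratins around them, from -0.29 to -0.091. For the other targets and settings no member region passed limma at an adjusted p of 0.05.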
